A study of Mus musculus with 9 samples.

Results

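Perivascular and meningeal fibroblasts are the collagen-producing stromal cells that lie around the larger vessels of the brain and in the meninges, the membranes that wrap it. They were looked for here among mouse-derived cells profiled by Drop-seq, a droplet method in which every molecule of a cell is tagged with the barcode of that cell and a unique molecular identifier (UMI), so that molecules and not reads are counted. A cell was called a fibroblast when it held UMIs of at least 3 of 7 marker genes (*Dcn*, *Lum*, *Col1a1*, *Col1a2*, *Col3a1*, *Igf2* and *Slc6a13*) and no UMI of 5 genes of other vascular and immune cells (*Rgs5*, *Higd1b* and *Kcnj8* of mural cells, *Cldn5* of endothelial cells and *Csf1r* of myeloid cells). By this rule 95 of 15391 cells (0.617%) were fibroblasts. Because the cells were chosen by their own UMIs, their levels against other cells are a description and carry no test.

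The cells come from 9 samples of nude mice, a strain that lacks a thymus. Nu-NB is the brain of a nude mouse without tumor, and P3, P8, P13, T16, T101, T192 and T233 are 7 untreated patient-derived orthotopic xenografts (PDOXs), glioblastomas grown in the mouse brain from organoids of human tumor tissue, so that the tumor cells are human and the stroma is of the mouse. P3TMZ is the same PDOX as P3 after temozolomide (TMZ), an alkylating chemotherapy, given by gavage. The mice were female, age is not given in the sources used here, each sample is 1 library, and T192 and T233 derive from the same patient. Mouse cells were taken by FACS in Nu-NB and P8 and by MACS in all other samples, and the same split separates files with older and newer gene symbols, so these cannot be told apart. The symbol *Col1a1* is not in the file of T101, where 6 marker genes could count. Total UMIs per file ranged from 1294068 to 8410580 and the median UMIs per kept cell from 521 to 1303. Kept cells of different libraries shared 20 barcodes over all pairs of libraries, and 0 of them belonged to a fibroblast.

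Fibroblasts of the brain secrete fibrillar collagens and small proteoglycans such as decorin, which bind and space the collagen fibres. Meningeal fibroblasts also form part of the barrier between blood, cerebrospinal fluid and brain, and are known for transporters, retinoic acid synthesis and secreted lipid carriers. Perivascular fibroblasts sit outside the mural cells, the pericytes and smooth muscle cells, of arterioles and venules.

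The promoters of 4 genes on which the results below turn are shown from RefSeq on GRCm38.p6, the build to which the reads were mapped. They run from 250 bases before to 50 bases after the RefSeq start of the gene, 5′ to 3′ on the strand of the gene. Gene positions given below are those of GENCODE, in which *Col1a2* and *Ptgds* start further upstream, so that their windows lie inside those genes. *Col1a2* (a chain of collagen I) stands for the genes of the rule, and *Apod* (apolipoprotein D, a lipid carrier) was found in nearly every fibroblast though the rule did not use it. *Ptgds* (prostaglandin D synthase, which also carries retinoids) and *Il33* (a nuclear alarmin) were each found in a part of the fibroblasts. Capitals mark matches, on either strand, to the TATA box (TATAAA), the CCAAT box (CCAAT), the core bound by forkhead factors such as Foxc1 (TAAACA) and a T-box site, as for Tbx18 (AGGTGT). None of the matches in these promoters overlap each other.
Col1a2, chr6:4505368-4505667, plus strand: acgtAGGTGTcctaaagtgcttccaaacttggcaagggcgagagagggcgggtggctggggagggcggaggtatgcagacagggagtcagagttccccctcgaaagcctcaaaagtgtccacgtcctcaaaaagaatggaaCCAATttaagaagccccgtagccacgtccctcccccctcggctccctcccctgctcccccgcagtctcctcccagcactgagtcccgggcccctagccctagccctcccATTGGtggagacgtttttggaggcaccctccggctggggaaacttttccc
Apod, chr16:31314759-31315058, minus strand: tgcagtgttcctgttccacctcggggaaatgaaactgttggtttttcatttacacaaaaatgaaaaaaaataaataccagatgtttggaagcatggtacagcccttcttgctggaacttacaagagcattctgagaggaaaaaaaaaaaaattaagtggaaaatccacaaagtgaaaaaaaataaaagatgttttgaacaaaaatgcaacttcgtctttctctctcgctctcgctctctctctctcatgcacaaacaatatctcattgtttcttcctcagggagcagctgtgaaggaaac
Ptgds, chr2:25469700-25469999, minus strand: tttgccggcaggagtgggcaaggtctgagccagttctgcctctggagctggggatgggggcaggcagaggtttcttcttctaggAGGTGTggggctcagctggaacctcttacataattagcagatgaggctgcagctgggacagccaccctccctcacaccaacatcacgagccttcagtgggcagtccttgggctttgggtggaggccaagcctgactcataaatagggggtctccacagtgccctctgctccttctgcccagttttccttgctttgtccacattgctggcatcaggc
Il33, chr19:29924863-29925162, plus strand: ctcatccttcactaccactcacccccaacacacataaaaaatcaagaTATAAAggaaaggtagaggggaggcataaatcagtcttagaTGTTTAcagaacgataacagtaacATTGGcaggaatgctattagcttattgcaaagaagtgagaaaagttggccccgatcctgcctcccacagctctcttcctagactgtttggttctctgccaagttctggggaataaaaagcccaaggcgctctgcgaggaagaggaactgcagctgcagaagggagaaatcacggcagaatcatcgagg

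The *Col1a2* promoter held the CCAAT box at base 142 and, on the other strand, at the RefSeq start of the gene, and the T-box site at base 5, counted from 1 at the first base printed. *Ptgds* held the T-box site at base 85. The *Il33* promoter, the first of 2 listed starts, held the TATA box at base 48 and, on the other strand, the forkhead core at base 89 and the CCAAT box at base 113. *Apod* held 0 matches. Of the first listed promoters of 27025 genes, 14.2% hold the TATA box, 37.9% the CCAAT box, 13.4% the forkhead core and 13.9% the T-box site. Among 60 promoters of the collagen, proteoglycan, meningeal and transcription factor lists used below, the shares were 18.3, 38.3, 13.3 and 16.7%. A match is a run of letters and not evidence of binding.

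Among the genes that chose the cells, *Dcn* (decorin, chromosome 10 from 97479609 to 97518143) was found in 89 of 95 fibroblasts, with a median of 4 and up to 54 UMIs per cell. *Col1a2* (chromosome 6 from 4504814 to 4541544) was found in 72 cells, *Igf2* (insulin-like growth factor 2) in 66 and *Col3a1* in 54. *Slc6a13*, a GABA and taurine transporter of the meninges, was found in 45 cells, *Lum* (lumican) in 43 and *Col1a1* in 23. Thus decorin was detected in nearly every cell and collagen I alpha 1 in 24.2% of them. Of cells without an exclusion gene, 33 held 3 marker genes, 28 held 4, 25 held 5, 7 held 6 and 2 held all 7. Just outside the rule, 45 cells held 2 marker genes. *Apod*, which the rule did not use, was found in 33.3% of the cells with 2 marker genes and in 87.9% of those with 3, with a median of 1931 and 673 UMIs per cell. *Itih5*, a stabilizer of hyaluronan matrix, was found in 31.1 and 63.6% of them.

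Markers of other cell types were then read in the fibroblasts. Of 17 myeloid markers, 12 reached a mean level of 100 counts per 1000000 UMIs of the summed cells (CPM) over fibroblasts and other cells, and 12 of 12 were lower in the fibroblasts than in the other cells of Nu-NB, P8 and P13 alike. Summed over the whole list, *Csf1r* aside, the fibroblasts had 540, 756 and 1163 CPM in Nu-NB, P8 and P13, and 5818 in the 16 fibroblasts of the 5 PDOXs with fewer than 10, against 10932, 19038, 11725 and 22751 in the other cells. Of the mural markers only *Vtn* (vitronectin) reached that level, and *Notch3*, *Des* and *Art3* had 0 UMIs in 95 cells. Summed without the exclusion genes, the mural list was higher in the fibroblasts. It had 1801, 1339 and 2455 CPM in Nu-NB, P8 and P13, against 226, 631 and 644 in the other cells. Of the endothelial markers *Pecam1*, *Vwf*, *Tek*, *Tie1*, *Egfl7* and *Esam* had 0 UMIs, and of the oligodendrocyte lineage *Mbp*, *Mog*, *Mobp*, *Mal*, *Sox10* and *Olig1* had 0. Summed in the same way, the endothelial list had 180, 432 and 484 CPM against 381, 883 and 2380 in the other cells. The oligodendrocyte lineage list had 1261, 950 and 743 CPM against 2309, 2992 and 475, so that in P13 the fibroblasts were above the rest. Of the choroid plexus markers *Ttr* (transthyretin) was found in 31.6% of fibroblasts and 41.9% of cells with a *Csf1r* UMI, which should lack it, with a median of 793 and 1094 UMIs per cell, so that its share here is at background. Astrocyte markers summed to 7746 CPM in Nu-NB, 2419 in P8 and 5523 in P13, against 18704, 8513 and 6317 in the other cells. In P13 all 22 UMIs of *Aqp4* came from 1 cell. Their part in the results below was not tested.

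The share of fibroblasts was compared between PDOXs and the brain without tumor. Fibroblasts were 10 of 1868 cells in Nu-NB, or 0.535% (95% exact binomial interval 0.257 to 0.982%). In P8 they were 42 of 2447 cells, or 1.72% (1.24 to 2.31%), and in P13 25 of 2916, or 0.857% (0.556 to 1.26%). These were the 2 PDOXs above Nu-NB, and they held 67 of the 95 cells. The share in T16 was 0.376% (8 cells, 0.163 to 0.740%) and in T101 0.190% (3 cells, 0.0392 to 0.555%). It was 0.157% in T192 (3 cells, 0.0325 to 0.460%), 0.122% in P3 (1 cell, 0.00310 to 0.679%) and 0.103% in T233 (1 cell, 0.00260 to 0.571%). The interval of P8 did not overlap that of Nu-NB, and the intervals of the other 6 PDOXs did. Over the 7 PDOXs the mean was 0.503% ± 0.597 (SD, n = 7), a difference of -0.0321 percentage points from Nu-NB (exact permutation test, two-sided, p = 1), and 1 brain against 7 PDOXs allows only 8 arrangements, too few to reach a p of 0.05. Intervals cover counting error only, and with 1 library per brain or tumor the p-value measures only the spread between these libraries.

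**Figure D1:**
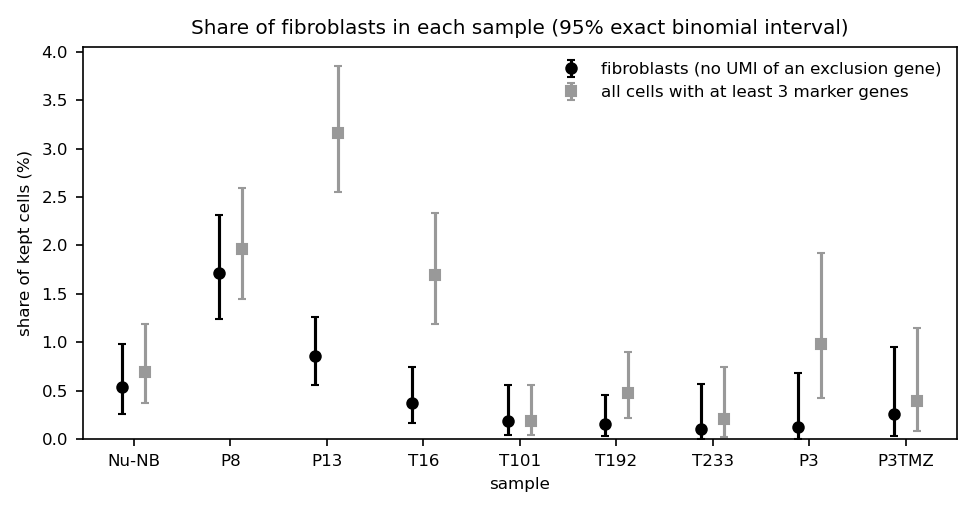
Share of the kept cells (%, vertical axis) in each sample (horizontal axis), with 95% exact binomial intervals. Black circles are fibroblasts and grey squares are all cells with at least 3 marker genes, which reach 3.16% in P13 and 1.69% in T16, where the black circles lie at 0.857 and 0.376%.

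How many marker-positive cells the exclusion genes removed differed between samples. In all, 214 cells held at least 3 marker genes and 119 of them (55.6%) also held an exclusion gene. The removed share was 0% in T101 (of 3 cells), 12.5% in P8 (of 48), 23.1% in Nu-NB (of 13), 33.3% in P3TMZ (of 3) and 50% in T233 (of 2). It was 66.7% in T192 (of 9), 72.8% in P13 (of 92), 77.8% in T16 (of 36) and 87.5% in P3 (of 8). Removed cells were deep, with a median of 5185 UMIs against 793 in the fibroblasts, and in T192 of 24038.5 against 696. Of the 119, 85 held *Rgs5* (a regulator of G-protein signaling of pericytes), 79 *Csf1r* and 13 held a single UMI of the exclusion genes. *Apod* was found in 70 of the 119, and of these 33 held *Pdgfra*, the PDGF receptor of fibroblasts, 38 *Rgs5* and 55 *Csf1r*, at a median of 7543.5 UMIs. Of the 49 cells without *Apod*, 4 held *Pdgfra*, 47 *Rgs5* and 24 *Csf1r*, at a median of 4121 UMIs. In T16 24 of 28 removed cells held *Apod*, in T192 6 of 6, and in P13 29 of 67. What the removed cells are was not tested.

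Without the exclusion, shares were 3.16% in P13 (95% exact binomial interval 2.55 to 3.86%), 1.69% in T16 (1.19 to 2.34%) and 0.978% in P3 (0.423 to 1.92%), and were 0.696% in Nu-NB (0.371 to 1.19%) and 1.96% in P8 (1.45 to 2.59%). The PDOX mean was then 1.24% ± 1.10 (SD, n = 7), higher than Nu-NB by 0.541 percentage points and with 4 of 7 PDOXs above it (two-sided exact permutation p = 0.875). With the exclusion, the difference was above 0 when T101, T192, T233 or P3 was left out (0.0347 points without T233) and was -0.234 points without P8.

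**Figure D2:**
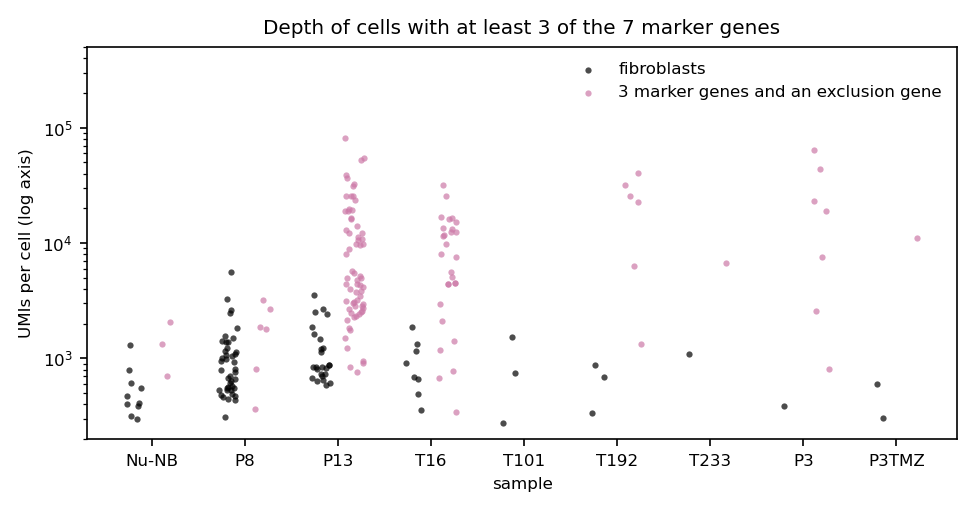
UMIs per cell (log axis) of cells with at least 3 of the 7 marker genes in each sample. Black points are fibroblasts, between 278 and 5569 UMIs, and pink points are cells that also held an exclusion gene, with a median of 4955 UMIs in P13 and 7798.5 in T16.

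Levels of single genes were read from UMIs summed over the fibroblasts of a sample, which gave 5551 UMIs in Nu-NB, 46306 in P8 and 30963 in P13, the samples with at least 10 fibroblasts. The 16 fibroblasts of T16, T101, T192, T233 and P3 were pooled (13407 UMIs). In this 3′ assay each captured molecule gives 1 UMI whatever the length of the gene. Of 1984 genes outside the rule at a mean of 100 CPM or more, 19.3% were higher in fibroblasts than in the other cells of the sample in all of Nu-NB, P8 and P13 and 21.5% were lower in all of them, with a median log2 ratio of 0.11 (pseudocount of 50 CPM). The lists below are set beside these shares as a description.

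*Apod* (chromosome 16 from 31296192 to 31314808) had 12250 CPM in the fibroblasts of Nu-NB (95% counting interval 9513 to 15530), 33128 in P8 (31490 to 34828) and 22931 in P13 (21275 to 24681), against 510, 269 and 264 CPM in the other cells. It was found in 10 of 10 fibroblasts of Nu-NB, 41 of 42 of P8 and 22 of 25 of P13, with a median of 18 and up to 169 UMIs per cell. In the pooled PDOXs it had 26479 CPM. It was found in 94.7% of fibroblasts and 3.47% of cells with a *Csf1r* UMI. *Ptn* (pleiotrophin, a heparin-binding growth factor) was as widespread, in 90 of 95 cells, with 16934, 12806 and 14598 CPM in Nu-NB, P8 and P13, where the other cells had 6088, 2424 and 1444. Thus *Ptn* was also high in cells that were not fibroblasts, and *Apod* was not.

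Of 15 genes of the meningeal and arachnoid list at 100 CPM or more, 10 were higher in fibroblasts in Nu-NB, P8 and P13 and 0 lower in all of them, with a median log2 ratio of 2.38. *Igfbp2*, a binding protein of insulin-like growth factors, had 1801, 1188 and 1227 CPM against 262, 267 and 179 in the other cells. *Igfbp5* of the same family had 1081, 4449 and 1647 CPM, and 123 of its 206 UMIs in P8 came from 1 cell. *Slc22a6*, an organic anion transporter, was found in 18 of 95 fibroblasts and 0% of cells with a *Csf1r* UMI. *Aldh1a2*, which makes retinoic acid, was found in 17. *Slc7a11*, the cystine transporter, was found in 38, with 1801 CPM in Nu-NB, 1209 in P8 and 452 in P13.

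Genes of the matrix differed among themselves. Of the basement membrane list, 7 of 9 genes at that level were higher in fibroblasts in all of Nu-NB, P8 and P13 (median log2 ratio 2.24). *Lamb1* (laminin beta 1) had 1621, 497 and 484 CPM against 8.44, 17.6 and 150 in the other cells. *Col15a1*, a collagen of the basement membrane zone, had 1081 and 518 CPM in Nu-NB and P8 but 64.6 in P13, from 2 UMIs, against 49.5 in the other cells there. *Col4a1* (collagen IV alpha 1) had 1081, 799 and 452 CPM, and 492 in the other cells of P13, so that in P13 the fibroblasts were not above the rest. Of the interstitial collagens outside the rule 2 of 3 genes were higher in all of them (*Col23a1* and *Col6a2*), and of the small proteoglycans 2 of 3 (*Bgn* and *Prelp*). Of 8 elastic fibre and glycoprotein genes 1 was higher (*Fbln2*) and 2 were lower (*Fn1* and *Sparc*). *Sparc*, a collagen-binding protein, had 1982, 1101 and 2810 CPM against 1999, 1738 and 3270. Of the collagen folding and crosslinking genes 2 of 4 were higher, among them *Pcolce*, the enhancer of procollagen processing, with 180, 626 and 291 CPM against 3.07, 8.79 and 47.3, where the level in Nu-NB is 1 UMI. Of 8 proteases and inhibitors 3 were higher and 2 lower, and *Timp3*, an inhibitor of metalloproteinases, had 1621, 1490 and 1712 CPM against 923, 354 and 329.

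Transcription factors known from the mesenchyme of the meninges were found in many cells. Of 8 such genes 6 were higher in fibroblasts in all of Nu-NB, P8 and P13 and 0 lower (median log2 ratio 2.55). *Zic1* was found in 42 of 95 fibroblasts, *Nr2f2* in 37, and *Tbx18* and *Foxc1* in 29 each. *Tbx18* had 1081, 605 and 323 CPM in Nu-NB, P8 and P13, against 3.07, 4.69 and 12.5 in the other cells. Of the receptors 5 of 9 were higher and 1 lower (*Tgfbr1*). *Pdgfra* had 1261, 670 and 549 CPM, against 9.97 in the other cells of Nu-NB and 469 in those of P8. *Fgfr1*, a receptor of fibroblast growth factors, had 0 UMIs in Nu-NB and 713 and 323 CPM in P8 and P13. Of the other cell types, 8 of 11 astrocyte genes, 2 of 3 endothelial, 2 of 4 choroid plexus, 3 of 4 oligodendrocyte lineage and 2 of 3 Schwann cell genes were lower in fibroblasts in all of Nu-NB, P8 and P13, and the 1 ependymal gene, *Rarres2*, was higher. Also higher in all of them were *Igfbp2* of the choroid plexus list and *Pdgfra* of the oligodendrocyte lineage list.

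Of 13 secreted signals 9 were higher in all of Nu-NB, P8 and P13 and 3 lower (*Clu*, *Cxcl13* and *Cxcl14*). *Cxcl12*, a chemokine that retains leukocytes and progenitors, was found in 52 of 95 fibroblasts, with 1081, 1468 and 581 CPM against 98.2, 73.8 and 236 in the other cells. *Rarres2* (chemerin) had 540, 540 and 710 CPM. *Vegfa* had 1081, 389 and 1260 CPM, but in P13 36 of its 39 UMIs came from 1 cell. Of the complement list, *C3*, *C2*, *C7* and *Cfb* had 0 UMIs in the 95 cells. *Vtn*, a mural marker as well, was found in 50.5% of fibroblasts and 78.6% of cells gated on at least 2 of *Rgs5*, *Higd1b* and *Kcnj8*, at 1801, 972 and 2164 CPM in the fibroblasts of Nu-NB, P8 and P13.

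Outside the lists, the genes with the largest ratio to the other cells were *Snhg11*, *Clmp*, *Dcdc2a*, *Cmbl*, *Itih5*, *Edn3*, *Enpp1*, *Crispld2*, *Cped1* and *Islr*, from 131 to 31.1 times by mean CPM of Nu-NB, P8 and P13. *Itih5* (chromosome 2 from 10153571 to 10256529) was the most widespread, in 72 of 95 cells, with 7206, 2807 and 2778 CPM against 69.0, 58.9 and 110. *Edn3* (endothelin 3, a vasoactive peptide) was found in 51 cells, with 1261, 777 and 1227 CPM against 10.7, 13.8 and 51.8. These ratios were used to pick the genes and are no finding about them.

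Of 11 activated fibroblast and myofibroblast genes 4 were higher in all of Nu-NB, P8 and P13 and 2 lower. *Cthrc1*, a secreted protein of collagen-producing cells after injury, had 180, 367 and 291 CPM against 25.3, 51.5 and 30.2, again from 1 UMI in Nu-NB, and *Tnc*, *Cnn1* and *S100a4* had 0 UMIs. Of 10 immediate early genes 0 were higher and 6 lower (*Fos*, *Jun*, *Junb*, *Atf3*, *Btg2* and *Zfp36*), with a median log2 ratio of -0.98. *Jun* had 721, 194 and 549 CPM against 1523, 605 and 1395. Of 6 hypoxia and glycolysis genes 1 was higher (*Vegfa*) and 1 lower. Of 12 genes of retinoid, lipid and prostaglandin handling 4 were higher and 4 lower, among the latter *Apoe* with 3783, 5377 and 3908 CPM against 7574, 23799 and 6248. Of the cell cycle list 7 of 21 genes had any UMI, 13 UMIs in all, and 0 of 95 fibroblasts held UMIs of 2 of them. Summed, the cell cycle list had 0, 86.4 and 194 CPM in the fibroblasts of Nu-NB, P8 and P13 against 670, 754 and 2189 in the other cells, at a median of 793 UMIs per fibroblast and 757 per cell over all cells.

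**Figure D3:**
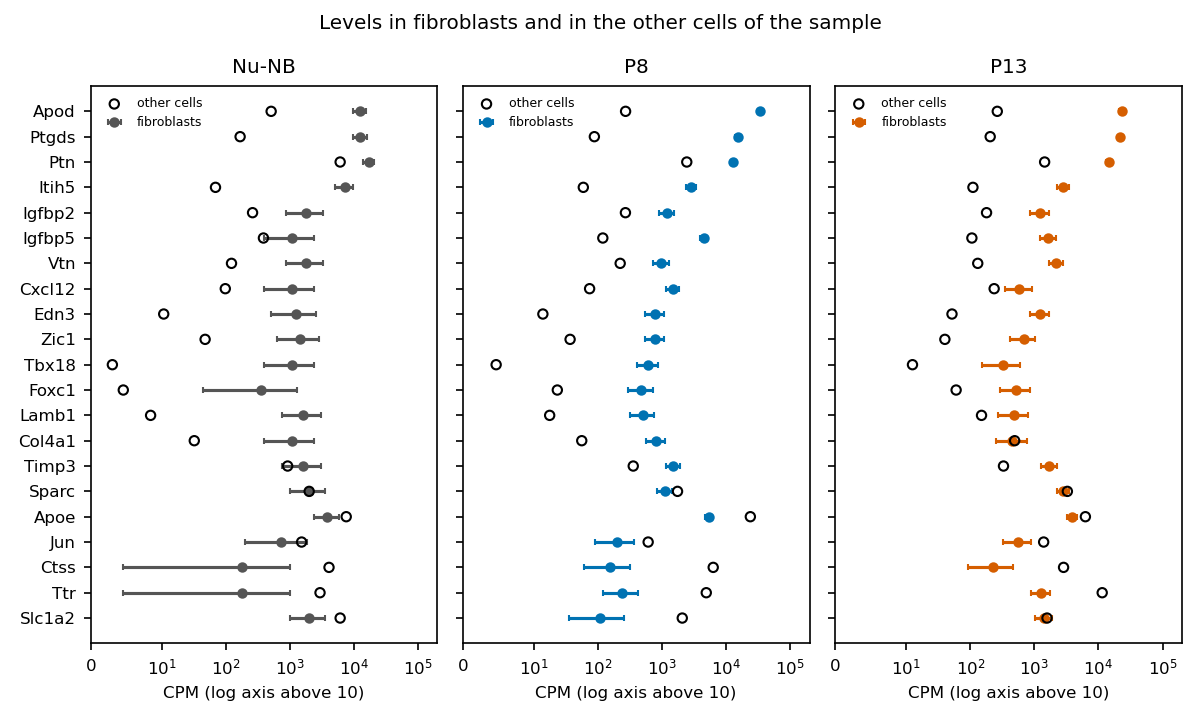
CPM (horizontal axis, log above 10) of 21 genes in the summed fibroblasts (filled, with 95% counting intervals) and in the other cells of the same sample (open circles), for Nu-NB, P8 and P13. *Apod*, *Ptgds*, *Itih5* and *Tbx18* lie far above the other cells in each sample, *Col4a1* only in Nu-NB and P8, and *Ctss* and *Ttr* below.

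*Ptgds* (chromosome 2 from 25466709 to 25470046) was high in the summed cells but was carried by few of them. It had 12610 CPM in Nu-NB, 15009 in P8 and 21542 in P13, against 167, 87.6 and 204 in the other cells. It was found in 4 of 10 fibroblasts of Nu-NB, 13 of 42 of P8 and 5 of 25 of P13, and 1 cell held 62 of the 70 UMIs of Nu-NB and 1 cell 400 of the 667 of P13. Over all samples 18 cells held 10 or more *Ptgds* UMIs, 9 held 1 to 9 and 68 held none. The 18 cells were 11 of P8, 4 of P13 and 1 each of Nu-NB, P3 and P3TMZ.

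Cells with 10 or more *Ptgds* UMIs and cells without any were set side by side, a split chosen after the values were seen, so that no test was made. The 18 cells had a median of 1022 UMIs and the 68 cells of 780. *Il33* (chromosome 19 from 29925114 to 29960718) was found in 29 of the 68 cells without *Ptgds* and in 0 of the 18 with it, which limits the share of cells with an *Il33* UMI (up to 16.7% at 3 counts) and not the share that expresses it. These 29 were 13 of 29 cells of P8, 6 of 20 of P13, 4 of 6 of Nu-NB, 3 of 6 of T16 and 1 each of T101, T192 and T233. *Il33* was found in 1.72% of cells with a *Csf1r* UMI.

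Of 1804 genes with at least 10 UMIs in both kinds of cells together, 622 were lower and 318 higher in the *Ptgds* cells in both P8 and P13, and in the 4 *Ptgds* cells of P13 a gene of few UMIs is often at 0. Being lower in the *Ptgds* cells was thus common over all genes, and the genes below were picked after their values were seen. *Col15a1* was found in 0 of 18 and 15 of 68 cells, *Col4a2* in 0 and 17, and *Fbln2* (fibulin 2, of elastic fibres) in 0 and 18. *Itih5* was found in 7 of 18 and 57 of 68 cells, while *Dcn* was found in 16 and 64 and *Apod* in 18 and 63. Summed over the basement membrane list, the *Ptgds* cells had 2786 CPM in P8 and 540 in P13 and the cells without *Ptgds* 4778 and 3768, with *Ptgds* left out of the totals. For the interstitial collagens outside the rule the values were 809 and 540 against 2246 and 1946. For the transcription factor list they were 6202 and 3239 against 5094 and 3686, with no common direction in P8 and P13.

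In the other direction, *Gjb6* (connexin 30, of gap junctions) was found in 13 of the 18 cells with *Ptgds* and 6 of the 68 without. *Slc22a6* was found in 10 and 7, *Aebp1* (a collagen-binding carboxypeptidase-like protein) in 14 and 17, and *Ranbp3l* in 8 and 0. *Aldh1a2* was found in 7 and 8 cells and *Crabp2* (a retinoic acid-binding protein) in 5 and 2. The list of retinoid, lipid and prostaglandin handling, with *Ptgds* left out, had 45749 CPM in the *Ptgds* cells of P8 and 20691 in those of P13, against 38505 and 30769, with no common direction. With each cell thinned to 500 UMIs, which left 16 cells with *Ptgds* and 54 without, *Il33* was found in 0 and 29.6%, *Itih5* in 31.3 and 70.4%, *Gjb6* in 37.5 and 3.70%, *Slc22a6* in 37.5 and 7.41% and *Ranbp3l* in 37.5 and 0% of them. *Cxcl12*, *Ptn*, *Vtn* and *Mgp* had no common direction in P8 and P13.

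**Figure D4:**
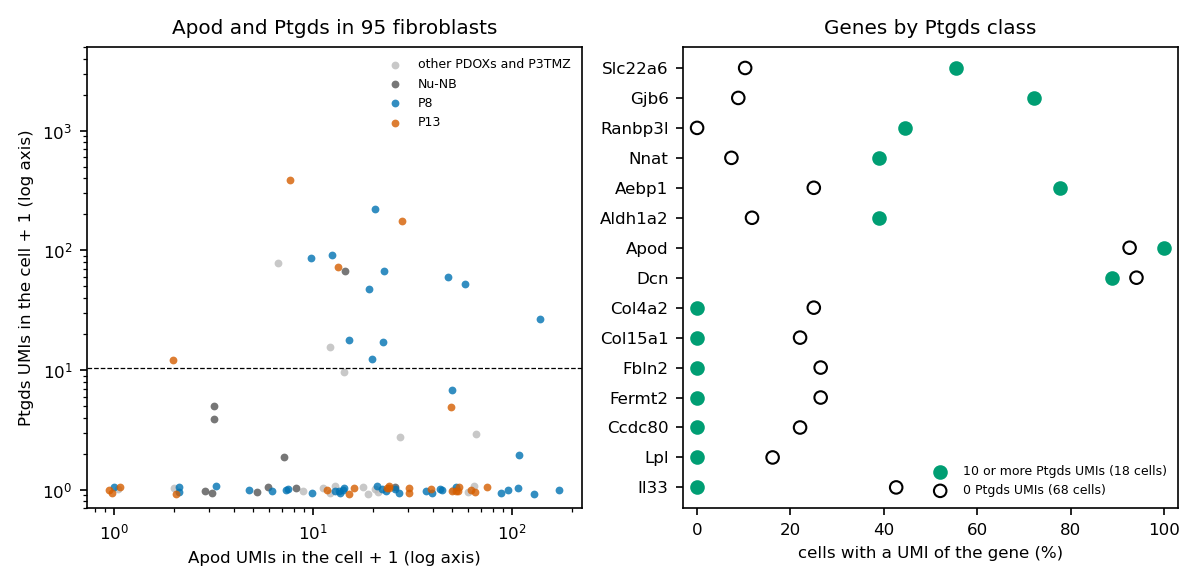
Left, UMIs of *Apod* and *Ptgds* (each + 1, log axes, points shifted slightly at random) in the 95 fibroblasts by sample, with a dashed line at 10 *Ptgds* UMIs above which 18 cells lie. Right, share of cells (%) with a UMI of each gene among the 18 cells with 10 or more *Ptgds* UMIs (filled) and the 68 without (open), with *Il33* at 0 and 42.6% and *Gjb6* at 72.2 and 8.82%.

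Genes of the fibroblasts were then compared between PDOX and normal brain by edgeR's quasi-likelihood test on the summed UMIs of P8 and P13 against Nu-NB, with 1 residual degree of freedom, so that the spread of Nu-NB is taken to be that between P8 and P13. Of 691 genes tested, 0 (0% called) passed a false discovery rate (FDR, Benjamini-Hochberg) of 0.01 with at least a 2-fold change, and 80 had an unadjusted p under 0.05. By DESeq2 2 genes passed, *Apod* and the mitochondrial *mt-Rnr2*, both higher in PDOX, and by edgeR their log2 fold changes were 1.75 and 1.52 with an FDR of 0.426 and 0.462. All 8 mitochondrial genes tested had a positive log2 fold change by edgeR, from 0.20 to 3.18 (*mt-Nd5*, with 2, 100 and 71 UMIs and an FDR of 0.250), and 0 of them were called. The median mitochondrial share of UMIs per fibroblast was 3.17% in Nu-NB, 4.81% in P8 and 6.91% in P13, and its part in the comparison was not tested. None of the 24 lists had a gene past the edgeR threshold. The genes nearest to it are given with their values as they were named by rule.

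*Mgp* (matrix Gla protein, an inhibitor of calcification) had 0 UMIs in the fibroblasts of Nu-NB, 90 in P8 (1944 CPM, 95% counting interval 1563 to 2389) and 97 in P13 (3133 CPM, 2540 to 3822), with an edgeR FDR of 0.0127. It was held by 14 of 42 cells of P8 and 7 of 25 of P13, and 1 cell held 37 of the 90 UMIs of P8 and 1 cell 64 of the 97 of P13. *Mgp* in the other cells was 39.9, 75.9 and 1131 CPM. So P8 and P13 both lay above the upper limit of Nu-NB, 665 CPM, with the UMIs in a minority of cells.

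*Vim* (vimentin, an intermediate filament of mesenchymal cells) had 0, 13 and 129 UMIs in Nu-NB, P8 and P13 (edgeR FDR = 0.0127), but 88 of the 129 came from 1 cell, and the other cells had 64.4, 221 and 1220 CPM. *H2-D1*, a heavy chain of MHC class I, had 0 UMIs in Nu-NB, 98 in P8 (2116 CPM) and 35 in P13 (1130 CPM), in 26 of 42 and 15 of 25 cells, with an edgeR FDR of 0.0333. In the other cells *H2-D1* was 268 CPM in Nu-NB, 1924 in P8 and 1677 in P13, so that it was higher in the PDOX cells that were not fibroblasts as well. *B2m*, the light chain, had 1, 79 and 39 UMIs (edgeR FDR = 0.250). *Ifitm3*, an interferon-induced membrane protein, had 0, 71 and 10 UMIs (edgeR FDR = 0.185), and the actin-binding *Tmsb4x* had 2, 36 and 229 (edgeR FDR = 0.0511). Of the 229 *Tmsb4x* UMIs 87 came from 1 cell, and the other cells had 2439, 4401 and 10632 CPM, above the fibroblasts in each sample.

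*Ogn* (osteoglycin, a small proteoglycan of the meninges) had 0 UMIs in Nu-NB, 45 in P8 and 20 in P13 (edgeR FDR = 0.185), in 13 and 5 cells, while the other cells had 21.5, 11.7 and 30.1 CPM. *Nedd4*, *Id2* and *Rps3* completed the 10 genes named on the higher side, where mitochondrial genes were left out, each with 0 UMIs in Nu-NB and an edgeR FDR of 0.185, and 39 of the 42 *Id2* UMIs of P13 came from 1 cell. A count of 0 in the fibroblasts of Nu-NB has an upper limit of 665 CPM, the bound of its 95% counting interval, so that a level such as the 64.6 CPM of *Col15a1* in P13 would usually give 0 UMIs there.

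On the lower side the smallest p had an edgeR FDR of 0.292. *Snhg11*, a host of small nucleolar RNAs, had 3783 CPM in Nu-NB (95% counting interval 2342 to 5783), 756 in P8 and 807 in P13, with a log2 fold change of -1.70 and an edgeR FDR of 0.357. *Il33* had 1982 CPM in Nu-NB (989 to 3546), 561 in P8 (367 to 823) and 355 in P13 (177 to 636), with a log2 fold change of -1.54 (edgeR FDR = 0.453), and 99.0, 32.5 and 25.3 CPM in the other cells. In these genes the counting intervals of P8 and P13 lay below that of Nu-NB, and the test did not call them. The other 8 were *Pcdhga9*, *Arhgap5*, *Pdcd4*, *Top1*, *Ttyh1*, *Son*, *Abca9* and *Zranb2*. *Pcdhga9*, with the smallest p of them, had 1261, 281 and 0 CPM in Nu-NB, P8 and P13. In the other cells it had 243, 315 and 0.842 CPM, so that it was nearly absent from all cells of P13.

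**Figure D5:**
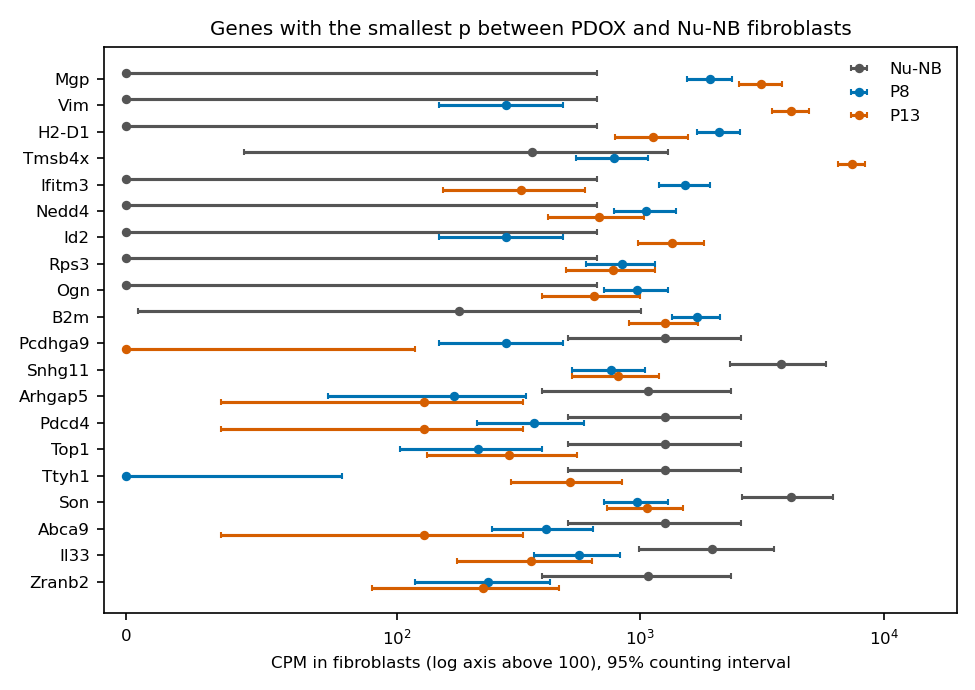
CPM in the summed fibroblasts (horizontal axis, log above 100) with 95% counting intervals in Nu-NB, P8 and P13 for the 10 genes with the smallest edgeR p in each direction, mitochondrial genes and unnamed gene models left out. *Mgp* and *H2-D1* lie above the interval of Nu-NB in both P8 and P13, *Snhg11* and *Il33* below it, and 0 of the 20 passed the FDR of 0.01.

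Summed over lists, with the genes of the rule left out, the basement membrane genes had 7566 CPM in Nu-NB (95% counting interval 5453 to 10227), 4427 in P8 (3842 to 5076) and 3036 in P13 (2453 to 3715), lower in both PDOXs beyond counting error. The elastic fibre and glycoprotein genes had 3783 (2342 to 5783), 6803 (6072 to 7597) and 8559 CPM (7559 to 9654), of which *Mgp* made up 1944 in P8 and 3133 in P13. The interstitial collagens were at 1081 (397 to 2353), 1728 (1370 to 2150) and 1615 CPM (1199 to 2129), where the intervals overlap. The meningeal and arachnoid list had 32967 (28364 to 38105), 60770 (58545 to 63057) and 52450 CPM (49929 to 55064), but most of these UMIs were those of *Apod* and *Ptgds*. Without both genes it had 8107 (5913 to 10847), 12633 (11630 to 13700) and 7977 CPM (7013 to 9037), above the interval of Nu-NB in P8 and inside it in P13. Of the 585 UMIs of this sum in P8, 206 were of *Igfbp5*, most of them from 1 cell as given above. The higher value of P8 thus leans on that cell. The list of retinoid, lipid and prostaglandin handling had 30805 (26361 to 35784), 55889 (53756 to 58085) and 51190 CPM (48701 to 53774), and without *Apod* and *Ptgds* 5945 (4092 to 8349), 7753 (6971 to 8598) and 6718 CPM (5836 to 7695), where the intervals overlap. These sums compare libraries, since the normal brain is 1 library of 10 fibroblasts.

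For TMZ there is 1 sample on either side and no test. Fibroblasts were 1 of 818 cells in P3 (0.122%, 95% exact binomial interval 0.00310 to 0.679%) and 2 of 760 in P3TMZ (0.263%, 0.0319 to 0.947%). Without the exclusion genes they were 8 cells (0.978%, 0.423 to 1.92%) and 3 cells (0.395%, 0.0815 to 1.15%), in the other order. In either case the intervals overlap. The fibroblast of P3 held 6 *Apod*, 76 *Ptgds* and 1 *Dcn* UMIs, and the 2 of P3TMZ together 60, 14 and 4.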

How the data were processed

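Mouse-derived cells of 9 Drop-seq libraries were used, deposited by the authors as raw UMI counts per gene and cell barcode, without normalization. Per the labels and the methods, reads were demultiplexed with bcl2fastq 2.0 and mapped with STAR to the mouse genome (mm10). A total of 1363 older gene symbols were renamed with RefSeq synonyms, which gave 32687 genes, 12949 of them in every file. Of 33998 barcodes, 15391 passed a minimum of 200 genes and a maximum of 30% mitochondrial UMIs. No doublet caller was run, but cells with exclusion genes were left out and an alternative drops the deepest 5% of cells. Fibroblasts were chosen by marker UMIs, and the members and the 24 gene lists were chosen with earlier results of these data known. UMIs were summed per sample and compared with edgeR 4.0.16 (TMM, filterByExpr) or DESeq2 1.42.0 on R 4.3.3, after tests on simulated data. In counts simulated with less spread than these data, edgeR called 4 of 68 genes changed 4-fold and 33 of 40 changed 16-fold. Most 4-fold changes would thus be missed. Intervals are exact, at 95%. Named genes are those of the rule, up to 5 per list with most UMIs in fibroblasts, the 10 outside the lists with the largest ratio to other cells and the 10 per direction with the smallest p, of genes with at least 20 UMIs in fibroblasts, with mitochondrial genes and unnamed gene models left out of the last 2 sets. Genes named only among the fibroblasts with and without *Ptgds*, or with 0 UMIs, were chosen after their values were seen. Gene positions are those of GENCODE on GRCm38. Alternatives were other marker and cell filters, scalings and tools. Some genes of the lists are not reported here.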

Additional observations from a re-analysis of the deposited data

How the results depend on the processing

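The difference in the share of fibroblasts between PDOXs and Nu-NB was near 0 and changed its sign with the processing, with exact permutation p-values of 0.5 to 1 over all alternatives with a test. It was 0.0469 percentage points with at least 2 marker genes, 0.541 without the exclusion genes, 0.314 with at least 500 genes per cell (where Nu-NB kept 1 fibroblast), 0.110 with cells thinned to 500 UMIs, and 1.18 between the FACS-sorted samples P8 and Nu-NB alone, which have no test. With exclusion genes allowed at up to 10% of the marker UMIs, an alternative chosen after seeing the data, it was 0.0317. Leaving out each PDOX gave -0.234 to 0.0347, above 0 without T101 (0.0201), T192 (0.0255), P3 (0.0314) or T233. The direction was kept with at least 4 marker genes, without *Igf2* and *Slc6a13*, with at most 10% mitochondrial UMIs and without the deepest 5% of cells.

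Genes past the edgeR threshold stayed at 0 with RLE scaling (78 genes at an unadjusted p under 0.05), with at least 5 fibroblasts per sample (35), without the exclusion genes (396) and, chosen after seeing the data, without the 3 deepest fibroblasts of each sample (17). There were 4 without a filter on low counts (*H2-D1*, *Mgp*, *Tmsb4x* and *Vim*), 2 without renamed symbols (*Mgp* and *Vim*, chosen after seeing the data) and 2 by DESeq2, all higher in PDOX. The cause was not tested. Leaving out P8 or P13 leaves 1 library on either side and no test, and with at least 4 marker genes Nu-NB kept 6 fibroblasts, under the minimum of 10. No paired analysis was possible because the labels give no replicate numbers shared between groups. Depth limits what the 5551 UMIs of Nu-NB can show.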
